A study of Danio rerio with 4 samples.

Results

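In zebrafish retina, 59 genes were listed below the uninjured level at all of the injured stages profiled, out of 2119 gene identifiers in the authors' deposited tables. Whole retinae of wild-type fish aged 10 months were sequenced in 4 groups: 12 hours after retinal injury (12 hpi), 4 days after injury (4 dpi), 4 days after injury with the fish kept for those days in 100 µM valproic acid (4 dpi + VPA), and uninjured. Valproic acid blocks histone deacetylases, and no group without injury received it. The kind of injury and the number of fish behind a group are not stated in the labels. The design text speaks of duplicates, but the tables hold 1 value per group in FPKM, that is fragments scaled to transcript length and library size, so no difference has a replicate check and no test was run.

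The 59 genes were chosen by their measured values. A gene was taken when it stood in the lower table of 12 hpi, of 4 dpi and of 4 dpi + VPA, each against uninjured retina, and when (injured FPKM + 0.1)/(uninjured FPKM + 0.1) was at most 0.5 in each. That its values lie below uninjured is therefore the choice itself, and every fold change against uninjured retina given here is a description. The 3 comparisons also share the uninjured retina: for 33 of the 59 genes the uninjured FPKM is the same number in all 3, so an error in that value enters all 3 at once. The tables for 12 hpi and 4 dpi + VPA list single transcripts, while the tables for 4 dpi list whole genes. A second uninjured value is given below wherever the whole gene differs from the transcript. In bulk tissue, fewer cells of a type and less RNA per cell cannot be told apart.

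The lower tables held 222 genes at 12 hpi, 573 at 4 dpi and 442 at 4 dpi + VPA, and the 59 made up 26.6%, 10.3% and 13.3% of them in that order. All 59 genes that stood in the 3 lower tables also passed the ratio, so the ratio removed 0 genes, and 0 of the 59 had an entry in a higher table. Of the genes listed in either direction, 36.5% were lower by that ratio at 12 hpi, 39.1% at 4 dpi and 42.1% at 4 dpi + VPA, beside 59 of 59 by choice. The highest ratios among the 59 were 0.380 for *purba*, 0.378 for *helz* and 0.355 for *abhd3*, and no gene in all 3 lower tables lay just outside the limit. Lying well inside it is not particular to the 59. At 12 hpi 1 lower entry was at 0.934 and the next at 0.380. The highest ratio in the lower table was 0.393 at 4 dpi and 0.386 at 4 dpi + VPA.

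The retina turns light into graded electrical signals, and its neurons depend on calcium channels, pumps and exchangers, on membranes rich in lipids, and on nuclear receptors that tune the supply of energy. In fish, Müller glia respond to damage by dividing and giving rise to new neurons, whereas mammalian retina does not repair itself in this way. Calcium carries the signal at photoreceptor and bipolar synapses, where plasma membrane pumps and sodium-calcium exchangers clear it again.

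The median change of the 59, as log2((injured FPKM + 0.1)/(uninjured FPKM + 0.1)), was −1.95 at 12 hpi, −2.11 at 4 dpi and −2.14 at 4 dpi + VPA. Over all genes of each lower table, the 59 included, the medians were −2.13 at 12 hpi, −1.94 at 4 dpi and −2.0 at 4 dpi + VPA. Over the other genes of each lower table they were −2.30 at 12 hpi, −1.92 at 4 dpi and −1.98 at 4 dpi + VPA. At least 4-fold lower levels were listed for 26 of them at 12 hpi, 33 at 4 dpi and 37 at 4 dpi + VPA. Their median level was 6.17 FPKM at 12 hpi, 6.35 FPKM at 4 dpi and 5.20 FPKM at 4 dpi + VPA. In uninjured retina it was 26.6 FPKM in the 12 hpi tables, 30.4 FPKM in the 4 dpi tables and 27.2 FPKM in the 4 dpi + VPA tables. Most levels were moderate, and *esrrd*, *zgc:195245* and *RAP1GDS1 (1 to many)* had the highest in uninjured retina.

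The authors' own tests do not single these genes out one by one. In the authors' deposited table the p-values of the 59 ran from 0.00025 to 0.0492 at 12 hpi, from 0.0002 to 0.046 at 4 dpi and from 0.00055 to 0.0447 at 4 dpi + VPA, inside the limit of 0.05 by which the tables were cut. The lowest q-values, the p-values after adjustment over all features the authors tested, were 0.237 at 12 hpi, 0.117 at 4 dpi and 0.445 at 4 dpi + VPA in the authors' deposited table. None of the 59 was marked significant there, against 0%, 0.341% and 0% of all listed genes that were lower and marked, at 12 hpi, 4 dpi and 4 dpi + VPA. The authors' log2 fold change over their statistic was read as a standard error. Its median over the 59 was 0.79 at 12 hpi, 0.83 at 4 dpi and 0.81 at 4 dpi + VPA. This quotient does not match every p-value. For *wnk1b* at 4 dpi it was 1.38, beside a log2 fold change of −2.30 and p = 0.0098 in the authors' deposited table.

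**Figure D1:**
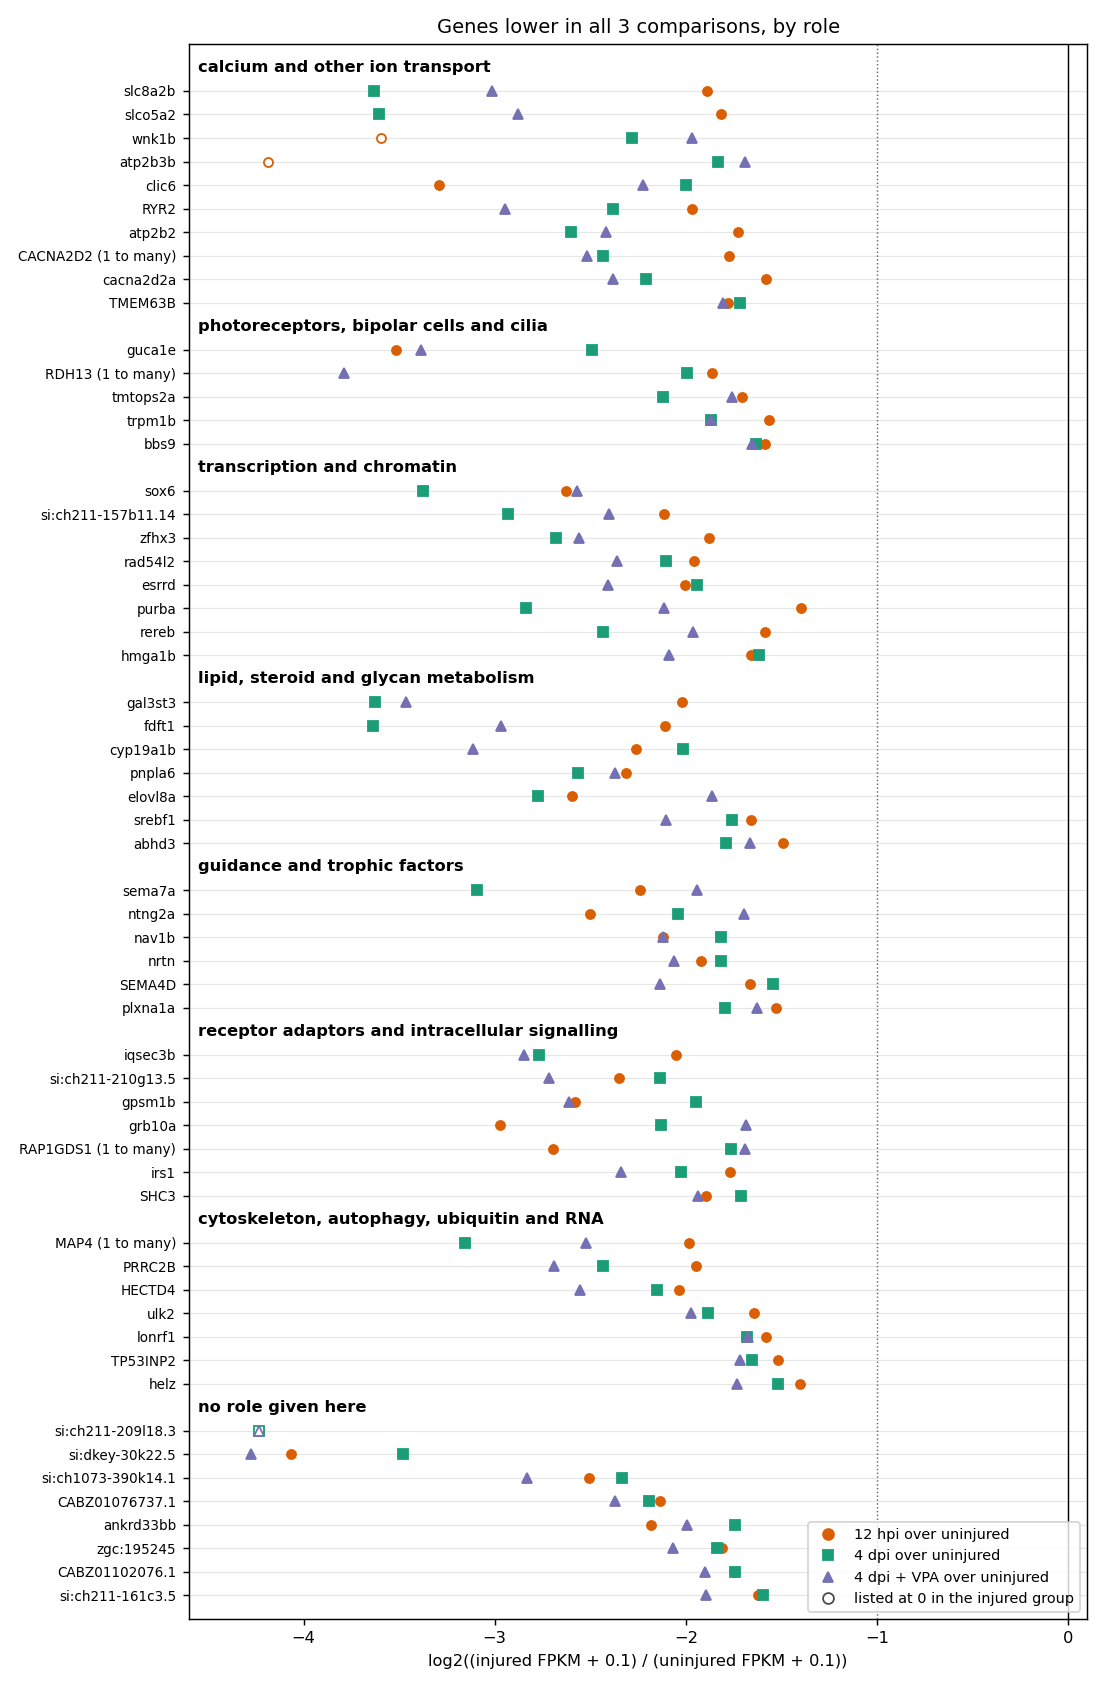
Each row is 1 gene, for 58 of the 59, grouped by role, and the x axis is the log2 change of each injured group over uninjured retina with 0.1 FPKM added (12 hpi circles, 4 dpi squares, 4 dpi + VPA triangles, open symbols where the injured value was listed at 0, dotted line at the ratio of 0.5). All points lie left of the dotted line by choice, most between −1.40 and −4, and genes such as *TMEM63B* have 3 nearly equal changes while *slc8a2b*, *clic6* and *RDH13 (1 to many)* have widely spread ones.

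By role, as assigned after the values were known, 10 of the 59 transport calcium, other ions or solutes, or regulate such transport. Another 8 act in transcription or chromatin and 7 in lipid, steroid or glycan metabolism. Receptor adaptors and intracellular signalling account for 7, and the cytoskeleton, autophagy, ubiquitin or RNA for 7. A further 6 act in photoreceptors, bipolar cells or cilia, 6 are guidance or trophic factors or their receptors, and 8 are left without a role.

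Genes that clear calcium from neurons or let it in were among the lower ones at each stage. They comprise a pair of plasma membrane calcium pumps (*atp2b2*, *atp2b3b*), the sodium-calcium exchanger *slc8a2b*, the entry labelled *RYR2* after the ryanodine receptor that releases calcium from internal stores, and 2 entries for an alpha2delta subunit of voltage-gated calcium channels. At 12 hpi *atp2b3b* was listed lower only by a minor transcript, and its more abundant transcript was not listed at that stage. *slc8a2b*, on chromosome 15 from 42811737 to 43025035 of the genome build GRCz10, was at 5.92 FPKM at 12 hpi, 1.70 FPKM at 4 dpi and 2.67 FPKM at 4 dpi + VPA, against 22.2 FPKM in uninjured retina. The lowest of its values was therefore at 4 dpi, a log2 change of −3.63 (p = 0.00155, q = 0.451 in the authors' deposited table). *RYR2*, on chromosome 12 from 47186265 to 47366027, was at 6.17 FPKM at 12 hpi, 4.61 FPKM at 4 dpi and 3.08 FPKM at 4 dpi + VPA, against 24.4 FPKM in uninjured retina. The lowest of its values was at 4 dpi + VPA, a log2 change of −2.95, beside −1.97 at 12 hpi and −2.38 at 4 dpi.

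*atp2b2*, on chromosome 11 from 1121077 to 1306091, had a transcript at 6.19 FPKM at 12 hpi and 3.79 FPKM at 4 dpi + VPA, against 20.7 FPKM in uninjured retina. The whole gene was at 6.18 FPKM at 4 dpi, against 38.0 FPKM in uninjured retina. The other calcium pump entered by different transcripts. For *atp2b3b*, on chromosome 23 from 19907871 to 20026746, the 12 hpi tables list a minor transcript, at 0 FPKM against 1.72 FPKM in uninjured retina, while the 4 dpi + VPA tables list another at 12.4 FPKM against 40.2 FPKM in uninjured retina. The whole gene was at 12.7 FPKM at 4 dpi, against 45.4 FPKM in uninjured retina.

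The alpha2delta entries lie next to each other on the minus strand of chromosome 6, *CACNA2D2 (1 to many)* from 53448961 to 53493699 and *cacna2d2a* from 53503062 to 53879179, 9.36 kb apart. *CACNA2D2 (1 to many)* was at 5.37 FPKM at 12 hpi, 3.36 FPKM at 4 dpi and 3.17 FPKM at 4 dpi + VPA, against 18.6 FPKM in uninjured retina. *cacna2d2a* was at 12.1 FPKM at 12 hpi, 7.76 FPKM at 4 dpi and 6.89 FPKM at 4 dpi + VPA, against 36.3 FPKM in uninjured retina. The reference gene table gives the first entry the symbol *cacna2d2a*, the name the deposited tables give the second, so they may be pieces of 1 gene, in which case the set holds 58 genes.

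Other ion and solute carriers in the set differed in when they were lowest. *clic6*, a chloride intracellular channel protein on chromosome 1 from 1471301 to 1479795, was at 4.57 FPKM at 12 hpi, 11.3 FPKM at 4 dpi and 9.69 FPKM at 4 dpi + VPA, against 45.6 FPKM in uninjured retina, so its lowest level came at 12 hpi. *slco5a2*, of the organic anion transporter family, had a transcript at 2.57 FPKM at 12 hpi and 1.18 FPKM at 4 dpi + VPA, against 9.30 FPKM in uninjured retina, and the whole gene was at 1.91 FPKM at 4 dpi, against 24.3 FPKM in uninjured retina. *TMEM63B*, named after a stretch-gated cation channel of mammals, was at 8.31 FPKM at 12 hpi, 8.68 FPKM at 4 dpi and 8.17 FPKM at 4 dpi + VPA, against 28.8 FPKM in uninjured retina, the narrowest spread among the 32 genes above 0 whose injured values can be compared in all 3 tables. The last of the 10, *wnk1b*, a kinase that regulates ion cotransporters, again had a minor transcript at 0 FPKM at 12 hpi, against 1.11 FPKM in uninjured retina. Its whole gene was at 6.35 FPKM at 4 dpi, against 31.3 FPKM in uninjured retina, and another transcript was at 4.88 FPKM at 4 dpi + VPA, against 19.3 FPKM in uninjured retina.

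Of a list of 131 voltage-gated channels and ion pumps, 6 were lower and 0 higher at 12 hpi, 22 lower and 0 higher at 4 dpi, and 10 lower and 0 higher at 4 dpi + VPA. Of all genes listed in either direction, 36.5%, 39.1% and 42.1% were lower by the ratio, in the same order. Genes of a list without an entry are outside these shares, here and for the lists below. The shares therefore do not compare with counts over the 131. This list and the other lists used here were chosen with earlier results of these data known. The list of channels and pumps holds 4 of the 59 genes by spelling, which leaves out *RYR2* and *CACNA2D2 (1 to many)*. Its other lower genes include *kcnb2*, a potassium channel, at 56.2 FPKM at 4 dpi against 538 FPKM in uninjured retina. *cacna2d4a*, an alpha2delta subunit of photoreceptors, was at 3.06 FPKM at 12 hpi against 24.8 FPKM in uninjured retina.

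Among photoreceptor, bipolar cell and cilium genes, the cone gene *guca1e* had the lowest values against uninjured retina at 12 hpi. It encodes a guanylate cyclase activating protein, which senses calcium in the outer segment, and lies on chromosome 22 from 1075739 to 1092619. Its transcript was at 3.45 FPKM at 12 hpi and 3.79 FPKM at 4 dpi + VPA, against 40.6 FPKM in uninjured retina, and the whole gene was at 13.6 FPKM at 4 dpi, against 77.0 FPKM in uninjured retina. The 12 hpi change of −3.52 stood beside p = 0.00065 and q = 0.502 in the authors' deposited table. *RDH13 (1 to many)*, on chromosome 16 from 38159908 to 38167971 and named after a retinol dehydrogenase, had a transcript at 7.42 FPKM at 12 hpi and 1.88 FPKM at 4 dpi + VPA, against 27.2 FPKM in uninjured retina. Its whole gene was at 7.86 FPKM at 4 dpi, against 31.6 FPKM in uninjured retina, and the transcript was lower at 4 dpi + VPA than at 12 hpi.

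*bbs9*, a subunit of the complex that carries membrane proteins to cilia, had a transcript at 11.6 FPKM at 12 hpi and 11 FPKM at 4 dpi + VPA, against 34.9 FPKM in uninjured retina. The whole *bbs9* gene was at 13.501 FPKM at 4 dpi, against 42.1 FPKM in uninjured retina. The transcript had nearly the same level at 12 hpi and at 4 dpi + VPA.

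*trpm1b* belongs to the family of the cation channel that opens in mammalian ON bipolar cells, and is also a gene of pigment cells. Its transcript was at 12.1 FPKM at 12 hpi and 9.77 FPKM at 4 dpi + VPA, against 36.0 FPKM in uninjured retina, and the whole gene was at 13.2 FPKM at 4 dpi, against 48.3 FPKM in uninjured retina. *tmtops2a*, a teleost opsin found in many tissues, was at 13.52 FPKM at 12 hpi, 10.1 FPKM at 4 dpi and 13 FPKM at 4 dpi + VPA, against 44.4 FPKM in uninjured retina. In this gene the injured values lay within 1.33-fold of each other.

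The lists for retinal cell types held few other genes of the set, and some photoreceptor genes were listed higher. The set is 59 of 2119 listed genes, so few members on a list is not read as a result. Of all genes listed in either direction, 36.5% were lower by the ratio at 12 hpi, 39.1% at 4 dpi and 42.1% at 4 dpi + VPA. Of 38 cone genes, 2 were lower and 1 higher at 12 hpi, 2 lower and 1 higher at 4 dpi, and 3 lower and 0 higher at 4 dpi + VPA, with *guca1e* in each. *grk1b*, an opsin kinase, was at 4.45 FPKM at 12 hpi against 53.8 FPKM in uninjured retina, whereas *guca1a*, another activating protein, was at 217 FPKM at 12 hpi against 60.4 FPKM in uninjured retina. Of 28 rod genes, 1 was lower at 12 hpi, 0 at 4 dpi and 1 at 4 dpi + VPA, in each case *rcvrna*, a recoverin, at 63.6 FPKM at 12 hpi and 85.7 FPKM at 4 dpi + VPA, against 237 FPKM in uninjured retina.

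Of 52 genes shared by rods and cones, 5 were lower, 1 higher and 1 in both directions at 12 hpi, 7 lower and 1 higher at 4 dpi, and 3 lower and 1 higher at 4 dpi + VPA. The higher gene in each was *nr2e3*, a nuclear receptor of photoreceptors, at 72.3 FPKM at 12 hpi, 37.2 FPKM at 4 dpi and 43.6 FPKM at 4 dpi + VPA, against 11.9 FPKM in uninjured retina. Of 25 bipolar genes, *trpm1b* was joined only by *cabp2a*, a calcium-binding protein, at 35.3 FPKM at 4 dpi against 183 FPKM in uninjured retina, among those listed lower, and 1 gene was higher at 4 dpi. Of 25 pigment epithelium genes, again with *trpm1b*, 1 was lower at 12 hpi, 1 at 4 dpi and 4 at 4 dpi + VPA, where 1 was also higher. The 42 amacrine and horizontal cell genes had 0 entries in any table.

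Regulators of transcription were led in level by *esrrd*, an orphan nuclear receptor of the oestrogen-related family on chromosome 18 from 48984139 to 48996690. It was at 85.6 FPKM at 12 hpi, 89.3 FPKM at 4 dpi and 64.7 FPKM at 4 dpi + VPA, against 344 FPKM in uninjured retina, the highest uninjured level of the 59. The injured values lay within 1.38-fold of each other. Oestrogen-related receptors act with the coactivators of the PGC-1 family on genes of mitochondrial energy supply.

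A gene tied to the same receptors by name was in the set too. The entry *si:ch211-157b11.14*, which the reference gene table calls *perm1b*, carries the name of a regulator that PGC-1 and oestrogen-related receptors induce in mammalian muscle. It was at 1.99 FPKM at 12 hpi, 1.09 FPKM at 4 dpi and 1.61 FPKM at 4 dpi + VPA, against 8.94 FPKM in uninjured retina. The family member *esrrgb* was at 6.21 FPKM at 4 dpi and 10.2 FPKM at 4 dpi + VPA, against 64.8 FPKM in uninjured retina, and was not listed at 12 hpi. The coactivator gene *ppargc1a* was at 3.66 FPKM at 4 dpi and 6.64 FPKM at 4 dpi + VPA, against 25.4 FPKM in uninjured retina, and likewise was not listed at 12 hpi.

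*sox6*, a transcription factor of the SoxD group on chromosome 7 from 26980281 to 27181168, had a transcript at 3.05 FPKM at 12 hpi and 3.17 FPKM at 4 dpi + VPA, against 19.4 FPKM in uninjured retina. The whole gene was at 2.84 FPKM at 4 dpi, against 30.4 FPKM in uninjured retina, a log2 change of −3.38 (p = 0.00035, q = 0.176 in the authors' deposited table). *zfhx3*, a zinc finger homeobox factor on chromosome 7 from 67980240 to 68157371, was at 3.09 FPKM at 12 hpi, 1.73 FPKM at 4 dpi and 1.89 FPKM at 4 dpi + VPA, against 11.6 FPKM in uninjured retina. Both 4-day values of *zfhx3* lay below the 12 hpi value, while the transcript of *sox6* was at nearly the same level at 12 hpi and 4 dpi + VPA.

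Further members of this group bind DNA or remodel chromatin. *rad54l2*, a helicase of the SNF2 family, was at 9.71 FPKM at 12 hpi, 8.74 FPKM at 4 dpi and 7.31 FPKM at 4 dpi + VPA, against 38.0 FPKM in uninjured retina. *hmga1b*, an architectural chromatin protein, had a transcript at 14.7 FPKM at 12 hpi and 10.9 FPKM at 4 dpi + VPA, against 46.7 FPKM in uninjured retina, and the whole gene was at 19.4 FPKM at 4 dpi, against 59.8 FPKM in uninjured retina. *purba*, which binds purine-rich single strands, was at 10.7 FPKM at 12 hpi, 3.89 FPKM at 4 dpi and 6.49 FPKM at 4 dpi + VPA, against 28.4 FPKM in uninjured retina. It sits nearest the limit of the choice at 12 hpi and is well inside it at 4 dpi, where its log2 change was −2.84.

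*rereb*, a corepressor named for arginine and glutamic acid repeats, was at 7.41 FPKM at 12 hpi, 4.08 FPKM at 4 dpi and 5.70 FPKM at 4 dpi + VPA, against 22.48 FPKM in uninjured retina. It lies on the plus strand of chromosome 6 from 40673799 to 40691506 and ends 313 bases from *si:ch211-157b11.14*, which runs on the minus strand from 40691820 to 40700049. Both were lowest at 4 dpi and highest, among the injured groups, at 12 hpi. Whether reads were counted by strand is not stated, so reads near the shared end cannot be told apart.

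Of a list of 92 neuronal transcription factors and nuclear receptors, 5 were lower and 4 higher at 12 hpi, 13 lower and 2 higher at 4 dpi, and 10 lower and 2 higher at 4 dpi + VPA, with *esrrd*, *sox6* and *zfhx3* lower in each. The share of all listed genes that were lower by the ratio was 36.5%, 39.1% and 42.1%, in the same order. The list also holds *ppargc1b*, a second PGC-1 coactivator, at 10.0 FPKM at 4 dpi and 12.0 FPKM at 4 dpi + VPA, against 41.3 FPKM in uninjured retina. *foxo1a*, a factor that insulin signalling restrains, was at 4.63 FPKM at 4 dpi and 8.40 FPKM at 4 dpi + VPA, against 33.2 FPKM in uninjured retina. The higher genes include *fosab*, a part of the AP-1 factor, at 77.3 FPKM at 12 hpi against 1.89 FPKM in uninjured retina. Also higher at 12 hpi were *nr4a1*, at 5.87 FPKM against 0.810 FPKM, and *foxo1b*, at 9.58 FPKM against 1.65 FPKM in uninjured retina.

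Lipid genes in the set run from a master regulator to single enzymes. *srebf1*, the transcription factor that turns on fatty acid synthesis, lies on chromosome 3 from 61824618 to 61850706. It was at 17.2 FPKM at 12 hpi, 16.1 FPKM at 4 dpi and 12.6 FPKM at 4 dpi + VPA, against 54.6 FPKM in uninjured retina. *fdft1*, squalene synthase and the first enzyme committed to sterols, lies on chromosome 20 from 53101979 to 53134084, and its transcript was at 6.09 FPKM at 12 hpi and 3.31 FPKM at 4 dpi + VPA, against 26.6 FPKM in uninjured retina. The whole *fdft1* gene was at 2.62 FPKM at 4 dpi, against 33.8 FPKM in uninjured retina, a log2 change of −3.64 (p = 0.0033, q = 0.532 in the authors' deposited table).

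*pnpla6*, a phospholipase known as neuropathy target esterase, had a transcript at 3.57 FPKM at 12 hpi and 3.42 FPKM at 4 dpi + VPA, against 18.1 FPKM in uninjured retina, and the whole gene was at 4.59 FPKM at 4 dpi, against 27.7 FPKM in uninjured retina. *elovl8a*, of the fatty acid elongase family, had a transcript at 4.13 FPKM at 12 hpi and 6.95 FPKM at 4 dpi + VPA, against 25.5 FPKM in uninjured retina, and the whole gene was at 3.92 FPKM at 4 dpi, against 27.4 FPKM in uninjured retina. *abhd3*, a phospholipase in mice, was at 7.47 FPKM at 12 hpi, 6.06 FPKM at 4 dpi and 6.63 FPKM at 4 dpi + VPA, against 21.2 FPKM in uninjured retina. Of these, *elovl8a* was the one with a higher value at 4 dpi + VPA than at 12 hpi.

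The enzymes with the lowest levels of the group differed most between injured groups, among those that could be compared. *cyp19a1b*, the brain aromatase that makes oestrogens in radial glia of fish, lies on chromosome 25 from 4764338 to 4778004 and is typed as a pseudogene in the deposited annotation. It was at 1.25 FPKM at 12 hpi, 1.5 FPKM at 4 dpi and 0.647 FPKM at 4 dpi + VPA, against 6.36 FPKM in uninjured retina. *gal3st3*, a sulfotransferase that adds sulfate to galactose on glycans, lies on chromosome 7 from 6918452 to 7016410. It was at 1.41 FPKM at 12 hpi, 0.398 FPKM at 4 dpi and 0.457 FPKM at 4 dpi + VPA, against 6.04 FPKM in uninjured retina, so that both values after 4 days were under a log2 change of −3.

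Of 50 genes of sterol and fatty acid synthesis, 3 were lower and 0 higher at 12 hpi, 4 lower and 2 higher at 4 dpi, and 4 lower and 1 higher at 4 dpi + VPA, with *srebf1* and *fdft1* in each count of lower genes. The share of all listed genes that were lower by the ratio was 36.5%, 39.1% and 42.1%, in the same order. *sqlea*, the next enzyme of the sterol route after squalene synthase, was at 0.861 FPKM at 4 dpi + VPA against 5.67 FPKM in uninjured retina. *ldlrb*, of the lipoprotein receptor family, was at 2.08 FPKM at 4 dpi against 8.96 FPKM in uninjured retina. *msmo1*, a later enzyme, was at 3.32 FPKM at 4 dpi against 12.6 FPKM in uninjured retina. In the other direction *abca1b*, a cholesterol exporter gene of the list, was at 7.21 FPKM at 4 dpi against 0.697 FPKM in uninjured retina.

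Guidance genes in the set include semaphorins and a plexin, a ligand family and a receptor family that steer axons. *sema7a*, a membrane-anchored semaphorin on chromosome 25 from 26400825 to 26424580, had a transcript at 7.69 FPKM at 12 hpi and 9.50 FPKM at 4 dpi + VPA, against 36.7 FPKM in uninjured retina. The whole *sema7a* gene was at 6.36 FPKM at 4 dpi, against 55.0 FPKM in uninjured retina. *SEMA4D*, another semaphorin, was at 3.59 FPKM at 12 hpi, 3.90 FPKM at 4 dpi and 2.55 FPKM at 4 dpi + VPA, against 11.6 FPKM in uninjured retina. The plexin receptor gene *plxna1a* was at 2.96 FPKM at 12 hpi, 2.44 FPKM at 4 dpi and 2.75 FPKM at 4 dpi + VPA, against 8.72 FPKM in uninjured retina, with injured values within 1.21-fold of each other.

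*nrtn*, neurturin, is a ligand of the GDNF family that keeps neurons alive and lies on chromosome 11 from 6352187 to 6389317. It was at 5.75 FPKM at 12 hpi, 6.19 FPKM at 4 dpi and 5.20 FPKM at 4 dpi + VPA, against 22.1 FPKM in uninjured retina, again nearly level among the injured groups. *ntng2a*, a netrin-G that sits in the membrane at synapses, had a transcript at 4.24 FPKM at 12 hpi and 7.51 FPKM at 4 dpi + VPA, against 24.5 FPKM in uninjured retina, and the whole gene was at 8.12 FPKM at 4 dpi, against 33.8 FPKM in uninjured retina. *nav1b*, a neuron navigator of growing neurites, had a transcript at 1.05 FPKM at 12 hpi and 1.05 FPKM at 4 dpi + VPA, against 4.90 FPKM in uninjured retina, and the whole gene was at 2.35 FPKM at 4 dpi, against 8.53 FPKM in uninjured retina.

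Adaptors of the insulin receptor and other growth factor receptors formed a further group. *irs1*, the insulin receptor substrate, lies on chromosome 15 from 36030579 to 36072101 and was at 8.31 FPKM at 12 hpi, 6.93 FPKM at 4 dpi and 5.56 FPKM at 4 dpi + VPA, against 28.6 FPKM in uninjured retina. *grb10a*, an adaptor that binds the insulin receptor and restrains it, lies on chromosome 19 from 23551846 to 23665499. It was at 4.41 FPKM at 12 hpi, 8.0 FPKM at 4 dpi and 10.9 FPKM at 4 dpi + VPA, against 35.4 FPKM in uninjured retina. The order of the injured values was thus opposite in these 2 genes, though *grb10a* has 2 annotated transcripts and its 4 dpi value is for the whole gene. The 12 hpi change of *grb10a*, −2.97, had the lowest p of the set at that stage (p = 0.00025, q = 0.237 in the authors' deposited table). *SHC3*, a neuronal adaptor of receptor tyrosine kinases, had a transcript at 3.74 FPKM at 12 hpi and 3.63 FPKM at 4 dpi + VPA, against 14.2 FPKM in uninjured retina, and the whole gene was at 6.87 FPKM at 4 dpi, against 22.7 FPKM in uninjured retina.

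Small GTPases and G proteins were represented by their regulators. *RAP1GDS1 (1 to many)*, named after an exchange factor and chaperone of small GTPases, lies on chromosome 13 from 21581833 to 21608692 and was at 12.5 FPKM at 12 hpi, 23.8 FPKM at 4 dpi and 25.1 FPKM at 4 dpi + VPA, against 81.2 FPKM in uninjured retina. Like *grb10a* it was lowest at 12 hpi. *gpsm1b*, a modulator of G protein signalling on chromosome 5 from 70956673 to 70991996, had a transcript at 7.55 FPKM at 12 hpi and 7.39 FPKM at 4 dpi + VPA, against 45.7 FPKM in uninjured retina. The whole *gpsm1b* gene was at 19.5 FPKM at 4 dpi, against 75.5 FPKM in uninjured retina.

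*iqsec3b*, an exchange factor for ARF GTPases that in mammals sits at inhibitory synapses, lies on chromosome 18 from 6282162 to 6337238. Its transcript was at 6.70 FPKM at 12 hpi and 3.82 FPKM at 4 dpi + VPA, against 28.1 FPKM in uninjured retina, and the whole gene was at 5.86 FPKM at 4 dpi, against 40.5 FPKM in uninjured retina. *si:ch211-210g13.5*, called *plcl5* in the reference gene table after the phospholipase C-like proteins, had a transcript at 5.62 FPKM at 12 hpi and 4.33 FPKM at 4 dpi + VPA, against 29.0 FPKM in uninjured retina, and the whole gene was at 8.21 FPKM at 4 dpi, against 36.4 FPKM in uninjured retina. In both genes the transcript was lower at 4 dpi + VPA than at 12 hpi.

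A mixed group serves the cytoskeleton, protein turnover and RNA. *MAP4 (1 to many)*, named after a microtubule-associated protein, lies on chromosome 24 from 40829499 to 40942437 and was at 7.54 FPKM at 12 hpi, 3.29 FPKM at 4 dpi and 5.15 FPKM at 4 dpi + VPA, against 30.1 FPKM in uninjured retina. Its 4 dpi change of −3.16 had the lowest p of all 59 in any comparison (p = 0.0002, q = 0.117 in the authors' deposited table). *PRRC2B*, a proline-rich RNA-binding protein gene, was at 6.31 FPKM at 12 hpi, 4.48 FPKM at 4 dpi and 3.73 FPKM at 4 dpi + VPA, against 24.6 FPKM in uninjured retina. At 4 dpi + VPA it had the lowest p of the set (p = 0.00055, q = 0.445 in the authors' deposited table).

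*HECTD4*, named after a ubiquitin ligase with a HECT domain, had a transcript at 3.75 FPKM at 12 hpi and 2.59 FPKM at 4 dpi + VPA, against 15.7 FPKM in uninjured retina, and the whole gene was at 5.96 FPKM at 4 dpi, against 26.8 FPKM in uninjured retina. *ulk2*, a kinase that starts autophagy, had a transcript at 15.7 FPKM at 12 hpi and 12.5 FPKM at 4 dpi + VPA, against 49.3 FPKM in uninjured retina, and the whole gene was at 14.098 FPKM at 4 dpi, against 52.3 FPKM in uninjured retina. *TP53INP2*, whose mammalian counterpart takes part in forming autophagosomes, had a transcript at 10.4 FPKM at 12 hpi and 9.02 FPKM at 4 dpi + VPA, against 29.9 FPKM in uninjured retina, and the whole gene was at 12.7 FPKM at 4 dpi, against 40.0 FPKM in uninjured retina. These 3 were all lower at 4 dpi + VPA than at 12 hpi, by less than 2-fold.

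*lonrf1*, a RING finger protein gene, was at 9.16 FPKM at 12 hpi, 8.56 FPKM at 4 dpi and 8.59 FPKM at 4 dpi + VPA, against 27.6 FPKM in uninjured retina. *helz*, an RNA helicase gene, had a transcript at 7.09 FPKM at 12 hpi and 5.63 FPKM at 4 dpi + VPA, against 18.9 FPKM in uninjured retina, and the whole gene was at 6.79 FPKM at 4 dpi, against 19.6 FPKM in uninjured retina. Its changes, of −1.40 at 12 hpi and −1.52 at 4 dpi, are among the smallest of the 59.

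Among genes above 0 FPKM in every injured group, the lowest mean change belonged to a gene for which no role is given here. *si:dkey-30k22.5*, a processed transcript of chromosome 1 from 25028823 to 25030873, was at 2.16 FPKM at 12 hpi, 3.3 FPKM at 4 dpi and 1.86 FPKM at 4 dpi + VPA, against 37.8 FPKM in uninjured retina, with log2 changes of −4.07, −3.48 and −4.27. The second processed transcript, *si:ch211-209l18.3*, was listed at 0 FPKM at 12 hpi, at 4 dpi and at 4 dpi + VPA, against 1.78 FPKM in uninjured retina, and no fold is given for it. *zgc:195245*, on chromosome 8 from 23755330 to 23759163, was second in level only to *esrrd*. It was at 37.5 FPKM at 12 hpi and 31.4 FPKM at 4 dpi + VPA, against 132 FPKM in uninjured retina, and at 39.4 FPKM for the whole gene at 4 dpi, against 141 FPKM in uninjured retina.

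The remaining 5 genes without a role had values that stayed close together after injury. *ankrd33bb* was at 9.18 FPKM at 12 hpi, 12.5 FPKM at 4 dpi and 10.5 FPKM at 4 dpi + VPA, against 42.1 FPKM in uninjured retina. *CABZ01102076.1* was at 15.5 FPKM at 12 hpi, 15.5 FPKM at 4 dpi and 13.9 FPKM at 4 dpi + VPA, against 52.2 FPKM in uninjured retina. In *si:ch211-161c3.5*, *CABZ01076737.1* and *si:ch1073-390k14.1* the highest and lowest injured values differed by 1.23-fold, 1.19-fold and 1.47-fold.

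The injured groups can be compared with each other where the same transcript or gene, with the same uninjured FPKM, stands in both tables, and the choice did not use these ratios directly, though it held every injured value low. The 4 dpi value is for the whole gene, and an equal uninjured FPKM was taken to mean the same feature. Some of these genes, among them *slc8a2b*, *purba* and *grb10a*, have 2 annotated transcripts. Their 4 dpi value could include a transcript that was at 0 in uninjured retina. For 32 genes above 0 this held in all 3 comparisons. The lowest of their injured values was at 12 hpi in 4 genes, at 4 dpi in 11 and at 4 dpi + VPA in 17. The highest and lowest injured values of a gene differed by a median of 1.61-fold, by less than 1.5-fold in 15 genes and by more than 2-fold in 9. Differences between injured groups have no error of their own in these tables.

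Among these 32 genes the widest spreads were 3.55-fold in *gal3st3* and 3.48-fold in *slc8a2b*, followed by *purba* at 2.76-fold, *clic6* at 2.49-fold and *grb10a* at 2.47-fold. The first 3 were lowest at 4 dpi, and *clic6* and *grb10a* at 12 hpi. Outside the 32, the transcript of *RDH13 (1 to many)* differed by 3.95-fold between 4 dpi + VPA and 12 hpi. At the other end of the 32 stood *TMEM63B* at 1.06-fold and *lonrf1* at 1.07-fold. These spreads rest on 1 value per group. That of *gal3st3* also rests on low levels, 0.398 FPKM at 4 dpi and 0.457 FPKM at 4 dpi + VPA.

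**Figure D2:**
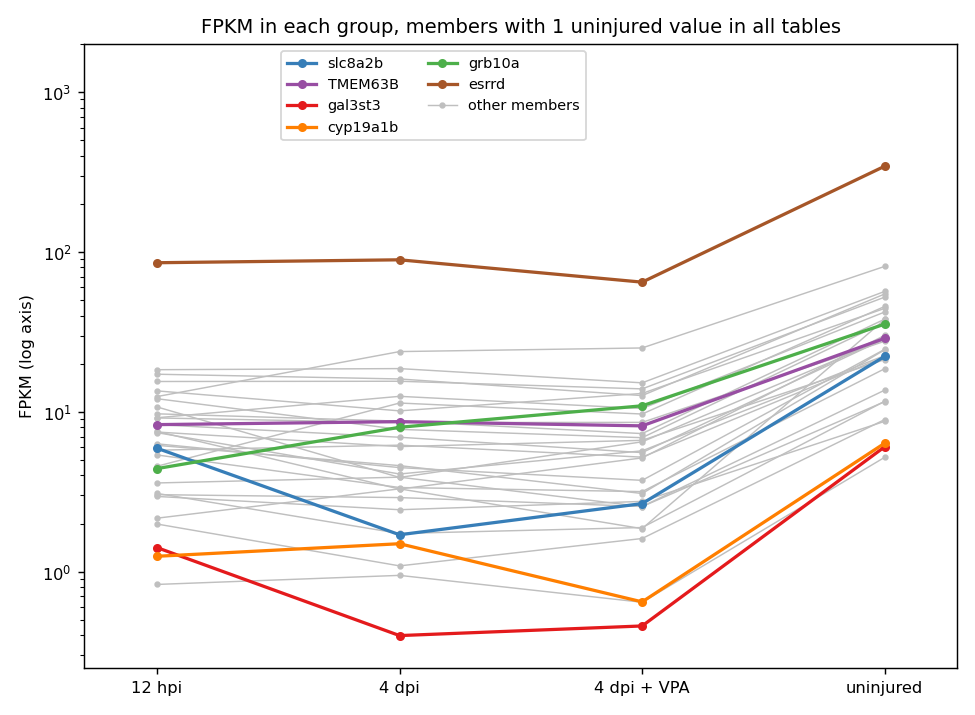
FPKM on a log axis in the 4 groups for the 32 genes above 0 that have the same uninjured value in all tables, each line joining the values of 1 gene. *esrrd* lies highest, with 344 FPKM in uninjured retina, *TMEM63B* is level across the injured groups near 8 FPKM, *gal3st3* and *slc8a2b* dip at 4 dpi, *grb10a* is lowest at 12 hpi and *cyp19a1b* is lowest at 4 dpi + VPA.

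After 4 days with valproic acid, 19 of the 32 genes were lower and 13 higher than at 4 dpi without it, with a median log2 ratio of −0.17. Among the other genes listed lower in both tables, 64 of 137 were lower and 73 higher, with a median of 0.01. The difference between these medians was not tested. *cyp19a1b* was the only one of the 32 beyond 2-fold, with a log2 ratio of −1.21. It was at 0.647 FPKM at 4 dpi + VPA against 1.5 FPKM at 4 dpi, both low levels. *si:dkey-30k22.5* followed at −0.83 and *SEMA4D* at −0.61, while *purba* at 0.74, *MAP4 (1 to many)* at 0.65 and *slc8a2b* at 0.65 were higher with valproic acid.

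Between 4 dpi + VPA and 12 hpi, 56 genes could be compared by the same transcript, and 46 were lower and 10 higher at 4 dpi + VPA, with a median log2 ratio of −0.30. For the other transcripts listed lower in both tables, 9 of 21 were lower and 12 higher, with a median of 0.03. Those other transcripts belong to genes not listed lower at 4 dpi, where the 56 were low by choice. They are therefore not an independent background, and the difference was not tested. Time and valproic acid both differ between 12 hpi and 4 dpi + VPA and cannot be told apart here. Beyond 2-fold lower were *RDH13 (1 to many)* at −1.98, *gal3st3* at −1.63, *slc8a2b* at −1.15, *slco5a2* at −1.13 and *RYR2* at −1.0. Beyond 2-fold higher were *grb10a* at 1.30, *clic6* at 1.09 and *RAP1GDS1 (1 to many)* at 1.01.

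Between 4 dpi and 12 hpi, without valproic acid at either stage, 19 of the 32 genes were lower and 13 higher at 4 dpi, with a median log2 ratio of −0.13. The lowest ratios were −1.83 in *gal3st3*, −1.80 in *slc8a2b*, −1.46 in *purba* and −1.20 in *MAP4 (1 to many)*. The highest was 1.31 in *clic6*. Only 2 other genes could be compared in this way, so no background is given.

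**Figure D3:**
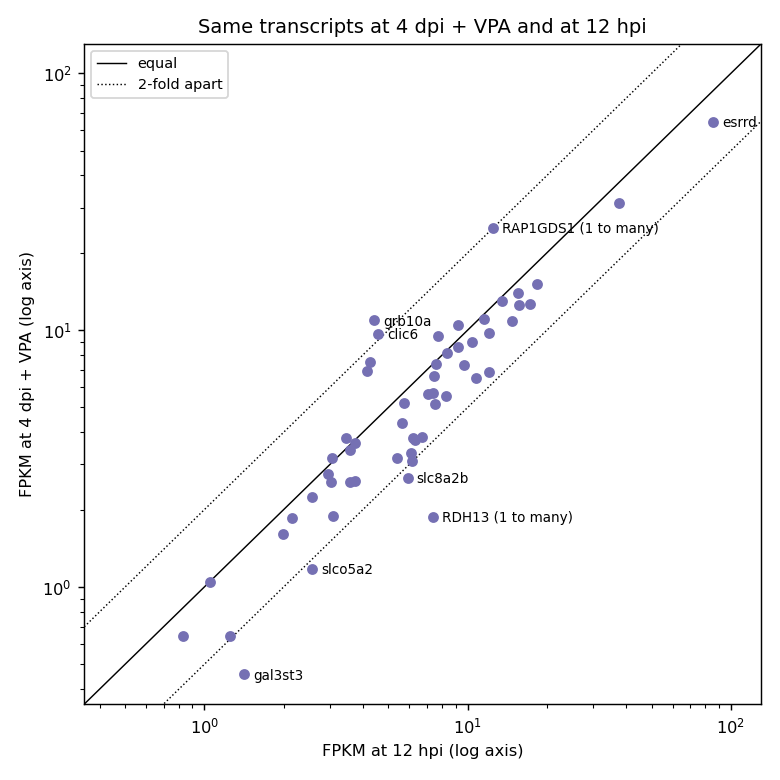
FPKM at 4 dpi + VPA (y axis) against FPKM at 12 hpi (x axis), both log axes, for the 56 genes with the same transcript in both tables and a value above 0, with lines for equal levels and for 2-fold either way. Of the points 46 lie below the line of equality, *RDH13 (1 to many)* and *gal3st3* farthest, and 10 lie above it, among them *grb10a* and *clic6*.

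Some properties of the genes were not used in the choice. The locus of a gene spanned a median of 39.8 kb in the 59, and 19 of them (32.2%) spanned over 100 kb, among them *cacna2d2a* and *slc8a2b*. The other genes listed lower had medians of 27.3 kb at 12 hpi, 50.8 kb at 4 dpi and 32.3 kb at 4 dpi + VPA. Genes listed higher had shorter medians of 9.62 kb at 12 hpi, 10.1 kb at 4 dpi and 10.7 kb at 4 dpi + VPA. The 59 were thus among the longer listed genes, as lower genes were in general, and the part of gene length in the FPKM differences was not tested.

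**Figure D4:**
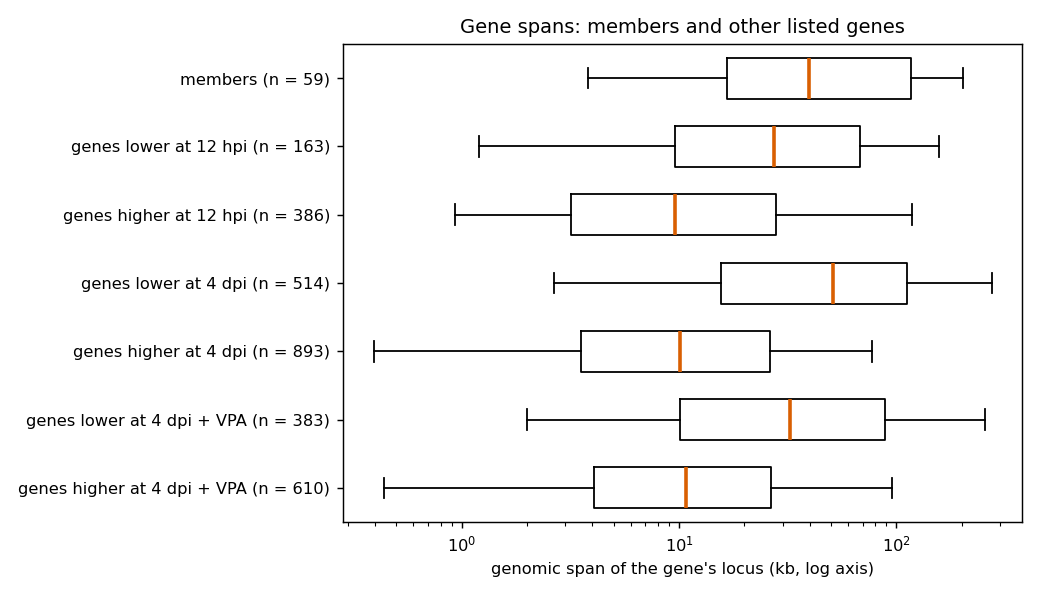
Genomic span of the gene's locus in kb on a log axis for the 59 genes and, without them, for the genes listed lower and higher in each comparison (box from the lower to the upper quartile, orange line at the median, whiskers at percentiles 5 and 95). The 59 have a median of 39.8 kb, and the genes listed higher have medians of 9.62 to 10.7 kb.

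By the deposited annotation 56 of the 59 are protein-coding, 2 are processed transcripts and *cyp19a1b* is the pseudogene entry, and 31 have more than 1 annotated transcript. The gene ontology terms of that annotation, searched after the values were known, cover 43 of the 59. A term with the word calcium stood beside 5 of these 43 (11.6%), against 4.72% of the other annotated genes listed lower at 12 hpi, 10.4% at 4 dpi and 8.36% at 4 dpi + VPA. A DNA binding term stood beside 8 of 43 (18.6%), against 13.4%, 6.54% and 8.36% in the same order. The term for an integral component of membrane stood beside 11 of 43 (25.6%), against 19.7%, 28.3% and 28.4%. These shares rest on few genes and were not tested.

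The genes lie on 24 chromosomes or scaffolds, with 8 (13.6%) on chromosome 6, which holds 6.11% of the genes listed lower at 4 dpi. These 8 are *tmtops2a*, *rereb*, *si:ch211-157b11.14*, *si:ch211-161c3.5*, the 2 alpha2delta entries, *hmga1b* and *nav1b*. Apart from the pair at *rereb* and the alpha2delta pair, the closest neighbours are *si:ch211-161c3.5* and *CACNA2D2 (1 to many)* at 81.5 kb, *SEMA4D* and *SHC3* on chromosome 21 at 130 kb, and *gpsm1b* and *PRRC2B* on chromosome 5 at 240 kb.

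Markers of other cell types moved between the groups in which the 59 were lower. Among all listed genes, 386 of 605 were higher at 12 hpi, 893 of 1466 at 4 dpi and 610 of 1051 at 4 dpi + VPA. Lower by the ratio were 36.5%, 39.1% and 42.1%, in the same order. Of 36 lens genes, 13 were listed higher at 12 hpi, 12 at 4 dpi and 13 at 4 dpi + VPA, and none lower. Their listed FPKM summed to 533 at 12 hpi against 5.06 in uninjured retina, to 266 at 4 dpi against 5.49 and to 1090 at 4 dpi + VPA against 5.06, with 9, 8 and 9 of the listed genes at 0 in uninjured retina. Of 40 macrophage and microglia genes, 4 were higher at 12 hpi, 18 at 4 dpi and 14 at 4 dpi + VPA, and none lower, and their listed FPKM summed to 118, 2872 and 382 at these stages against 17.9, 343 and 48.0 in uninjured retina, where 0, 0 and 1 of them were at 0. At 4 dpi the apolipoprotein gene *apoeb*, listed there as a whole gene, made up 2111 FPKM of that sum, against 11.2 FPKM for its transcript at 4 dpi + VPA. Without it the sums were 761 at 4 dpi and 371 at 4 dpi + VPA, against 110 and 48.0 in uninjured retina. The sums cover 17 whole genes at 4 dpi but 13 genes by transcript at 4 dpi + VPA, so they are not like for like. Genes listed at both stages went both ways, more of them higher than lower at 4 dpi + VPA. *cd63* was at 76.8 FPKM at 4 dpi and 110 FPKM at 4 dpi + VPA, and *lgals3bpb* at 151 and 60.5 FPKM. *cd74a*, at 175 FPKM at 4 dpi, was not listed at 4 dpi + VPA.

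Of 14 red blood cell genes, 3 were higher at 12 hpi, 1 at 4 dpi and 0 at 4 dpi + VPA, with a summed 378 FPKM at 12 hpi against 55.8 FPKM in uninjured retina. Of 42 Müller glia genes, 3 were lower and 1 higher at 12 hpi, 0 lower and 7 higher at 4 dpi, and 0 lower and 5 higher at 4 dpi + VPA. The listed FPKM of the higher ones summed to 3712 at 4 dpi against 344 in uninjured retina and to 1403 at 4 dpi + VPA against 52.4. This list also holds *apoeb*, and without it the sums were 1601 at 4 dpi against 111 in uninjured retina and 1391 at 4 dpi + VPA against 52.4. These sums cover 6 whole genes at 4 dpi but 4 genes by transcript at 4 dpi + VPA, so they are not like for like. *fabp11a* was at 135 FPKM at 4 dpi and 792 FPKM at 4 dpi + VPA. The values at the same stages were 1191 and 479 FPKM for *fabp7a*, 84.5 and 46.3 FPKM for *gfap*, and 95.6 and 73.9 FPKM for *vim*. The lower ones summed to 88.6 at 12 hpi against 297. None of the 59 is on these 4 lists. The part of RNA from such cells in the lower values of the 59 was not tested.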

How the data were processed

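The authors deposited a higher and a lower table for each injured group against uninjured retina, with 1 value per group. The submitters' processing notes name TopHat2 2.1.0, Bowtie2 2.2.2, Cufflinks 2.2.1 and the genome build GRCz10. Each entry holds FPKM values, a log2 fold change, a test statistic (a score), a p-value and a q-value computed by the authors, per the file headers. All deposited entries had p-values up to 0.05 and more than 1 FPKM in the group with the higher level. Values are per gene at 4 dpi and per transcript otherwise. Depth, strand counting and the number of genes tested are not given in the sources used here.

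Genes were matched by identifier with Python 3.11.15, pandas 2.3.3 and numpy 2.4.6, taking the entry of highest mean FPKM per gene and table, and plotted with matplotlib 3.10.9. A pseudocount of 0.1 FPKM was used for changes against uninjured retina, and none for ratios between injured groups. The selection code was run on simulated data without a pseudocount. There only the planted genes stood in every lower table, so that run checks the code and not the selection. The standard error was taken as the authors' log2 fold change over their statistic, and is missing for values at 0. The members, the 19 gene lists and the role groups were chosen with earlier results of these data known. The text names every member on a list, the 10 with the lowest mean change, the 10 highest in uninjured retina at 4 dpi, and those nearest the limit. It also names further genes of the lists, on most lists up to 4. On the list of neuronal transcription factors and nuclear receptors more are named. There *ppargc1a*, *ppargc1b* and *foxo1a* are not among the 4 further genes with the largest changes. 1 of the 59 and 1 other gene that the rule names are not reported here. All other members were added after their values were seen. No gene outside the 59 met the pattern without the ratio (0). Of the 59, 51 had a symbol in the reference gene table.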

Additional observations from a re-analysis of the deposited data

How the results depend on the processing

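The set stayed at 59 genes with a pseudocount of 1 or 0.01 FPKM, with the entry of highest uninjured FPKM, with the sum or the least lowered entry of a gene, and without genes in higher tables. This count says little about stability. The main ratio removed 0 genes, so none of these settings could add a gene. As 0 of the 59 had an entry in a higher table, leaving such genes out could remove none. It held 47 genes at a ratio of at most 0.33 and 14 at 0.25, 55 with an uninjured FPKM of at least 5, 56 without values under 0.01 FPKM, and 60 when matched by symbol, which joins *5S_rRNA* entries of different loci. Among alternatives chosen after seeing the data, it held 57 where the same transcript was required, 58 with the alpha2delta entries as 1 gene and 56 of protein-coding type. The median log2 change at 12 hpi, 4 dpi and 4 dpi + VPA was −1.69, −1.92 and −1.97 with a pseudocount of 1 FPKM, and −1.96, −2.12 and −2.21 with 0.01 FPKM. Without genes under 0.01 FPKM it was −1.91, −2.07 and −2.18, and in protein-coding genes −1.91, −2.07 and −2.12. With the same transcript it was −1.92 at 12 hpi and −2.22 at 4 dpi + VPA, and with 1 identical uninjured value −1.92, −2.12 and −2.34. The sign of the median was fixed by the choice and could not change under any of these. Summing entries left the median as it was. No paired analysis was possible because each group has 1 value per feature, and no replicate could be left out. The uninjured value that all comparisons share has no replicate in these tables, and depth is unknown, so its error cannot be measured here.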

Other observations

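Genes on the lists of synaptic transmission were also listed lower after injury, and none on these lists stood in all 3 lower tables. Of all genes listed lower at 4 dpi only 10.3% stood in all 3, so this absence among few genes is not read as a result. Members tied to synapses above, such as *iqsec3b* and *ntng2a*, are not on these lists. Of 72 synaptic vesicle and presynaptic genes, 0 were lower at 12 hpi, 10 at 4 dpi and 5 at 4 dpi + VPA. Of 92 neurotransmitter receptor and scaffold genes, 0 were lower in all their entries at 12 hpi, 11 at 4 dpi and 8 at 4 dpi + VPA. Of 96 kinases and calcium signalling genes, 1 was lower at 12 hpi, 14 at 4 dpi and 6 at 4 dpi + VPA, and of 86 cytoskeleton and adhesion genes 1, 3 and 2 were. Of 42 retinal ganglion cell genes, 1 was lower and 3 higher at 12 hpi, 1 lower and 6 higher at 4 dpi, and 0 lower and 6 higher at 4 dpi + VPA. Beside these counts, 36.5% of all listed genes were lower by the ratio at 12 hpi, 39.1% at 4 dpi and 42.1% at 4 dpi + VPA.

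Of 57 genes on a circadian clock list, 5 were lower and 4 higher at 12 hpi, and 7 lower and 1 higher at 4 dpi. At 4 dpi + VPA 6 were lower and 4 higher. Among all listed genes 36.5% were lower by the ratio at 12 hpi, 39.1% at 4 dpi and 42.1% at 4 dpi + VPA. Again none stood in all 3 lower tables, beside 10.3% of all genes listed lower at 4 dpi, and this is not read as a result. The lower ones at 4 dpi and at 4 dpi + VPA include a gene that is also on the neuronal transcription factor list. *per2*, a light-induced clock gene, was at 15.0 FPKM at 4 dpi against 111 FPKM in uninjured retina. *nr1d4b*, a nuclear receptor of the clock, was at 21.0 FPKM at 12 hpi against 1.45 FPKM in uninjured retina. The labels do not state the hour of sampling.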
